A study of Mus musculus with 14 samples.

Results

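Alpha-class glutathione S-transferases (GSTs) were followed in RPE, the retinal pigment epithelium, a sheet of cells that supports the photoreceptors. The class was taken as the 4 mouse genes Gsta1, Gsta2, Gsta3 and Gsta4, read by Ensembl identifier from the 34452 mouse gene rows of the count table. All 4 rows were present. RNA was sequenced from both eyes of 7 mice of the rd1 strain, killed at postnatal day 20. This strain (FVB/N) carries a complete loss of function of Pde6b and loses its rods, and this defect was shared by every eye. The control eye of each mouse received AAV-Best1-GFP, an adeno-associated virus that drives green fluorescent protein from the human Best1 promoter. The Nrf2 eye received the same GFP virus together with AAV-Best1-Nrf2, in which that promoter drives the human Nrf2 cDNA (gene NFE2L2). The promoter restricts expression to the RPE, there was no eye without virus, and the vectors differed in capsid, so the transgene and the added vector cannot be told apart. Each library is called by its group and the number of its mouse.

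GSTs join the tripeptide glutathione to reactive electrophiles, which makes the products soluble enough to be exported from the cell. The alpha class also reduces lipid hydroperoxides, and Gsta4 is best known for detoxifying 4-hydroxynonenal, an aldehyde formed when membrane lipids oxidize. Genes of this class are long-known targets of Nrf2, a transcription factor that binds antioxidant response elements after oxidative or electrophilic stress releases it from Keap1. The RPE takes up oxidation-prone photoreceptor membranes every day.

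The 4 genes fall into a group of near-identical copies and a pair of more distinct genes. The 5′ ends of the coding sequences are shown because this likeness limits which values can be told apart. All were read 5′ to 3′ from build GRCm38, over the first 87 coding bases, and capitals mark bases that differ from Gsta1. Gsta1 lies at chr9:78232240-78232326 on the plus strand and Gsta2 at chr9:78341830-78341916 on the minus strand. The predicted protein-coding genes Gm3776 (chr9:78258712-78258798, plus strand) and Gm10639 (chr9:78294806-78294892, plus strand) lie between them. Gsta3 is at chr1:21249772-21249858 and Gsta4 at chr9:78198290-78198376, both on the plus strand.
Gsta1: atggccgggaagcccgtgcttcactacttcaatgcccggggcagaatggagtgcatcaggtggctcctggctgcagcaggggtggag
Gsta2: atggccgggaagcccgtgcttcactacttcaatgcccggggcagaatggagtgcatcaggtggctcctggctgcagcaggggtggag
Gm3776: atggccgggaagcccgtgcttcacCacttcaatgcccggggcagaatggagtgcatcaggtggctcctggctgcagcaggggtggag
Gm10639: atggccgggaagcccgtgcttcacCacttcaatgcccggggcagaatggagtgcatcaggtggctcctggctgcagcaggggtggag
Gsta3: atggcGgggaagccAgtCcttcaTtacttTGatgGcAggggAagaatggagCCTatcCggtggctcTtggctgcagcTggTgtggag
Gsta4: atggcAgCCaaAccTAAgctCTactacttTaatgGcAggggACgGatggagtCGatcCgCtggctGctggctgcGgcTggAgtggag

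Gsta2 matched Gsta1 at every one of these bases, Gm3776 and Gm10639 differed at 1 base, Gsta3 at 16 and Gsta4 at 23. Over the whole coding sequence, Gsta1 was 98% identical to Gsta2 (653 of 666 aligned bases) and 99.7% identical to Gm3776, but 74.8% to Gsta3 and 66.8% to Gsta4. The share of 31-base words that a gene's transcripts hold in common with other genes gives the consequence for counting. Of the 845 such words in Gsta1, 779 (92.2%) were also found in another gene, against 657 of 1117 (58.8%) in Gsta2 and 39 of 1720 (2.27%) in Gsta3. None of the 1236 words of Gsta4 was shared. Reads of Gsta1, Gsta2, Gm3776 and Gm10639 were therefore taken to be divided between copies by an estimate, an inference about how the counts were made. Values for any single copy are uncertain in a way that values for Gsta3 and Gsta4 are not. The sum over Gsta1, Gsta2, Gm3776 and Gm10639 does not depend on how reads were divided among them and is given beside them. Some words were also shared outside this sum, in Gsta2 56 with the pseudogene Gm8074 and 10 with Gsta3.

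Depth did not limit the 4 genes. Libraries held 16548349 to 50543008 counts, and the smallest member value in any library was 800 counts, for Gsta1 in control 6. The vector transcript, human NFE2L2, stood at 1163 to 8711 CPM (counts scaled to a library total of 1000000) in Nrf2 eyes and at 1.12 to 1163 CPM in control eyes, so the highest control library, control 3, held as much of it as the lowest Nrf2 library, Nrf2 4. The fits of the 4 genes and the differences in response between them are also given without mice 3 and 4. Other results rest on all libraries unless stated. Endogenous Nfe2l2 had a log2 difference of 0.28 (SE 0.10, edgeR adjusted p = 0.204). RPE markers were abundant in all 14 libraries, summing to 25886 to 36317 CPM in Nrf2 eyes and 21177 to 43408 CPM in control eyes. Keratins and other surface epithelium markers were also present, at 2557 to 25566 CPM and 2374 to 62324 CPM, and 2 of 10 cone markers fell in Nrf2 eyes. The rod gene Rom1 rose (log2 fold change 1.97, edgeR adjusted p = 0.0252) and the ciliary epithelium gene Cldn2 fell (-1.45, edgeR adjusted p = 0.0131). Of the 18 RPE markers, only the visual cycle isomerase Rpe65 passed the test, and it fell by 2.17 on the log2 scale (SE 0.37, edgeR adjusted p = 0.0199). Fewer cells of a type and less RNA per cell cannot be told apart in such bulk samples.

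The first question was which alpha-class genes differed between the Nrf2 and the control eye of the same mouse. Gsta1, Gsta2 and Gsta3 rose in Nrf2 eyes, by 11.4-fold, 14.2-fold and 4.72-fold. Gsta4, the most abundant member, did not pass the test, with an estimate of 2.25-fold. Thus 3 of 4 members were called higher by edgeR's quasi-likelihood test at an adjusted p under 0.05, where 2.94% of the 16289 genes tested were called higher. The median log2 fold change over all genes tested was -0.04. In 3 of 4 members every Nrf2 eye lay above every control eye, against 1.04% of all genes tested, and in 3 of 4 the Nrf2 eye was higher in all 7 mice, against 3.28%. Genes called lower made up 0.491%, and calls in either direction 3.43%, of those tested. A fit without the mouse block called 5.38% higher, and the same 3 members. The opposite separation, every Nrf2 eye below every control eye, held for 0.755% of genes and for none of the 4 members.

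Gsta1 (ENSMUSG00000074183, chr9:78230656-78242684, GRCm38) encodes a subunit that conjugates electrophiles and reduces lipid hydroperoxides. In Nrf2 libraries 1 to 7 it was measured at 673, 500.4, 558, 105, 370.4, 417 and 953 CPM. The corresponding control libraries had 28.2, 34.2, 100.5, 47.3, 35.3, 33.7 and 47.2 CPM. The groups did not overlap, although Nrf2 4 was only 1.05 times control 3, and the other Nrf2 eyes all exceeded 370 CPM. The mean was 511 ± 264 CPM in Nrf2 and 46.6 ± 24.8 CPM in control eyes (SD, n = 7). The log2 fold change was 3.51 (SE 0.43, edgeR adjusted p = 0.00936), and within mice the difference ran from 1.15 in mouse 4 to 4.57 in mouse 1. A two-sided exact sign-flip permutation test of the 7 differences gave p = 0.0156, the smallest value that 7 mice allow.

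Gsta2 (ENSMUSG00000057933, chr9:78331018-78355788, minus strand), the near-identical partner of Gsta1, had the largest change of the 4 genes. Its level was 1059, 696, 906, 159, 567, 594 and 1242 CPM in Nrf2 libraries 1 to 7. In control libraries 1 to 7 the values were 25.6, 41.0, 149, 43.7, 54.0, 43.4 and 44.4 CPM. As for Gsta1, Nrf2 4 was lowest in its group and control 3 highest, and they differed by 1.07 times without overlap. The means were 746 ± 359 and 57.3 ± 41.3 CPM (SD, n = 7), and the fitted log2 difference was 3.82 (SE 0.45, edgeR adjusted p = 0.00936). Only 0.276% of the genes tested had a larger log2 fold change. The Nrf2 eye was higher in 7 of 7 mice, by 1.86 to 5.37 on the log2 scale (exact sign-flip p = 0.0156).

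The gene models between them moved in the same direction. Gm3776 (ENSMUSG00000111709) rose, with 25.1 ± 10.1 CPM in control and 196 ± 97.4 CPM in Nrf2 eyes (SD, n = 7), and the fitted log2 difference was 3.00 (SE 0.38, edgeR adjusted p = 0.00996). Gm10639 (ENSMUSG00000074179) was much scarcer, at 0.522 to 2.42 CPM in control eyes, from 13 to 80 counts, and 3.88 to 31.7 CPM in Nrf2 eyes. Its log2 fold change was 4.26 (SE 0.52, edgeR adjusted p = 0.00936). The sum of Gsta1, Gsta2 and both models was 313.5 to 2590 CPM in Nrf2 eyes and 70.2 to 297 CPM in control eyes. Its groups did not overlap, its log2 fold change was 3.57 (SE 0.43, edgeR adjusted p = 0.00975), and the call on the near-identical copies thus did not rest on how reads were divided among these copies. Adding Gsta3 and the related pseudogenes to the sum gave 2.81 (SE 0.34, edgeR adjusted p = 0.00997). The pseudogenes Gm8074, Gm2693 and Gm21909 held at most 20 counts in any library.

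Gsta3 (ENSMUSG00000025934, chr1:21240589-21265661) is known in mouse for conjugating aflatoxin epoxides, and it lies on another chromosome than the rest of the class. In Nrf2 libraries 1 to 7 it was measured at 1435, 1074, 1299, 415, 958, 1075 and 1544 CPM. The corresponding control libraries had 162, 187, 415, 163, 381, 239 and 247 CPM. Control 3 and Nrf2 4 were nearly equal, 414.9 and 415.4 CPM, so the lack of overlap between groups rests on a margin of 1.00 times, while the other Nrf2 eyes were all at or above 958 CPM. Means were 1114 ± 374 and 256 ± 103 CPM (SD, n = 7), and the log2 fold change was 2.24 (SE 0.26, edgeR adjusted p = 0.00936). The difference was 1.33 to 3.14 within mice, higher in 7 of 7 (exact sign-flip p = 0.0156). Without mice 3 and 4 the same fit gave log2 fold changes of 4.06 for Gsta1, 4.38 for Gsta2 and 2.47 for Gsta3 (edgeR adjusted p = 0.002, 0.00356 and 0.00966).

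Gsta4 (ENSMUSG00000032348, chr9:78182774-78209349), the aldehyde-conjugating member, was the only gene of the 4 whose groups overlapped. It reached 2952, 2524, 2799, 1787, 2842, 2161 and 3483 CPM in Nrf2 libraries 1 to 7. In control libraries 1 to 7 it was measured at 805, 1521, 1837, 352, 2148, 2852 and 1079 CPM. In its Nrf2 group only Nrf2 1 and Nrf2 7 exceeded every control eye. Control eyes spread over 8.11-fold and Nrf2 eyes over 1.95-fold. The means were 2650 ± 554 and 1513 ± 850 CPM (SD, n = 7). The log2 fold change was 1.17 (SE 0.37, 95% interval 0.32 to 2.02, edgeR adjusted p = 0.145, unadjusted 0.0125), so a rise was not called after adjustment over all genes. The Nrf2 eye was higher in 6 of 7 mice, the exception being mouse 6 with a difference of -0.40, and the largest difference was 2.34 in mouse 4. The exact sign-flip test of Gsta4 alone gave p = 0.0313 (mean 1.04, interval 0.10 to 2.02). DESeq2 (log2 fold change 1.19, adjusted p = 0.00629) and voom with sample quality weights (1.15, adjusted p = 0.0306) called it. These tools called 7.6% and 9.73% of all genes higher, and adjusted p over all alternatives ran from 0.00629 to 0.359. Without mice 3 and 4 the log2 fold change was 0.97 (edgeR adjusted p = 0.237).

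**Figure D1:**
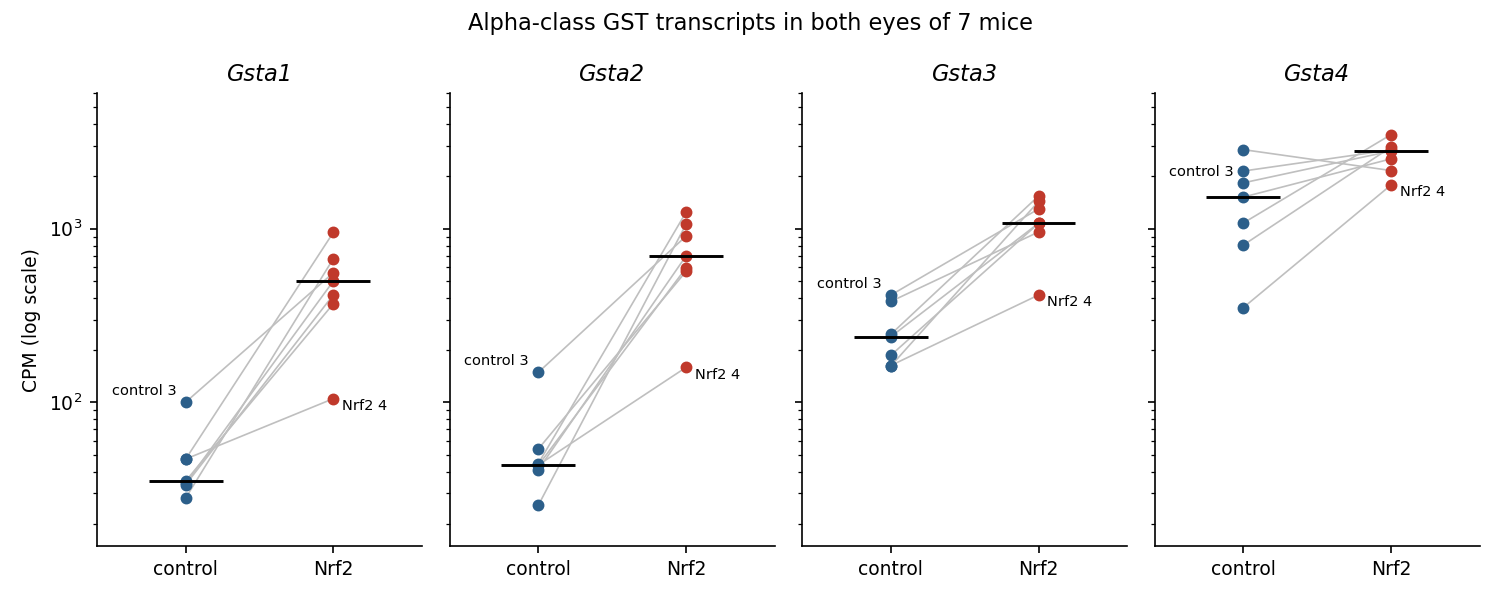
CPM (log axis) of each gene in the 7 control and 7 Nrf2 eyes; grey lines join the eyes of a mouse and black bars are medians. Gsta1, Gsta2 and Gsta3 do not overlap between groups, with control 3 and Nrf2 4 next to each other, whereas Gsta4 overlaps and is most spread among control eyes, from 352 to 2852 CPM.

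The spread of Gsta4 among control eyes was next set beside the markers of other cell types. The summed surface epithelium markers (12 genes, Krt5, Krt12, Krt14 and Krt15 among them) were lowest in control 4, at 2374 CPM, and highest in control 6, at 62324 CPM, the libraries with the lowest and highest Gsta4. Over the 7 control eyes the log2 levels had Pearson r = 0.98 (exact permutation p = 0.000397, adjusted 0.00635) and Spearman rho = 0.96 (exact permutation p = 0.00278, adjusted 0.0444). Without the 2 eyes farthest from the median marker level r was 0.97 (exact permutation p = 0.0167). This relation was 1 of 16, over 4 genes, 2 marker lists and both groups, and was looked for after the values had been seen. Among all genes tested, 1.93% had at least as high an r, and the CPM of all genes share the same library totals. In Nrf2 eyes the sign was opposite, with r = -0.65 for Gsta4 (exact permutation p = 0.111, adjusted 0.296).

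For the other members, r with the surface epithelium markers in control eyes was -0.11 for Gsta1, 0.20 for Gsta2 and 0.56 for Gsta3 (exact permutation adjusted p = 0.988, 0.821 and 0.449). In Nrf2 eyes their r was -0.82, -0.78 and -0.77, each with an exact permutation adjusted p of 0.0781. Against the summed RPE markers, Gsta4 had r = -0.81 in control eyes (exact permutation adjusted p = 0.0781), and the other members had r between -0.37 and 0.33. None of the 11 surface epithelium genes tested passed between groups, and their median log2 fold change was -1.48. With the log2 sum of the surface epithelium markers as a covariate in the paired fit, the log2 fold change was 2.99 for Gsta1, 3.39 for Gsta2, 2.04 for Gsta3 and 1.45 for Gsta4 (edgeR adjusted p = 0.00585, 0.00821, 0.0111 and 0.112), so no call changed. What part those cells had in the Gsta4 counts was not tested further.

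**Figure D2:**
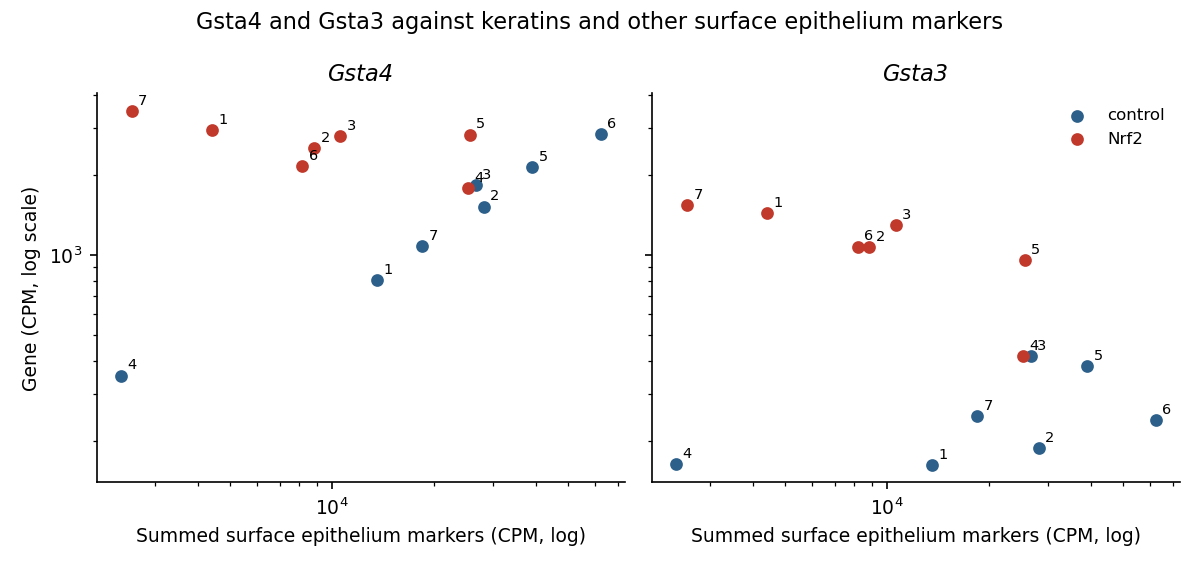
Gsta4 (left) and Gsta3 (right), in CPM on a log axis, against the summed surface epithelium markers, in CPM on a log axis; each point is 1 eye, numbered by mouse. Gsta4 increases with the markers among control eyes (r = 0.98), while Nrf2 eyes lie at 1787 to 3483 CPM over marker sums of 2557 to 25566 CPM.

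Next, the size of the response was compared between members within mice, over 6 pairs. The response of Gsta2 exceeded that of Gsta1 by 0.35 (log2, 95.3% interval 0.08 to 0.71), in 7 of 7 mice. Gsta1 exceeded Gsta3 by 1.23 (0.58 to 1.76) and Gsta4 by 2.31 (0.73 to 3.51), and Gsta2 exceeded them by 1.58 (0.96 to 2.16) and 2.66 (1.25 to 3.76). These 5 differences had adjusted p = 0.0375 by two-sided exact sign-flip tests. Gsta3 exceeded Gsta4 by 1.08, with an interval of -0.02 to 1.92 that includes no difference (exact sign-flip adjusted p = 0.0625). Mouse 4 stood apart from the rest in this order, since its Gsta4 difference of 2.34 was larger than its differences of 1.15, 1.86 and 1.35 for Gsta1, Gsta2 and Gsta3. Since Gsta1 and Gsta2 share most of their sequence, the contrast between them carries the uncertainty of the read division.

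**Figure D3:**
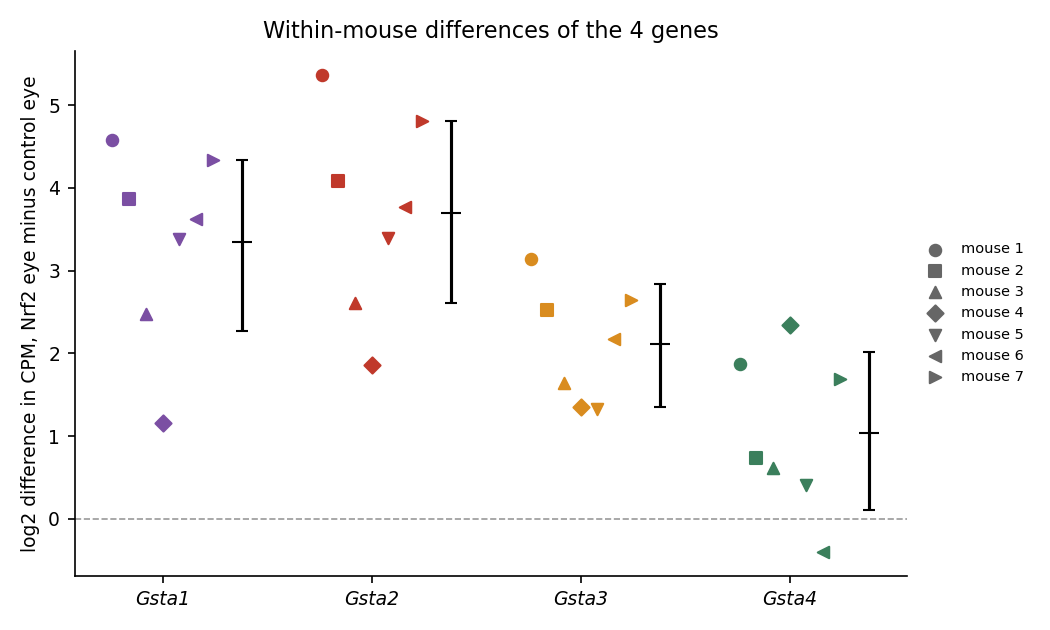
Log2 difference in CPM, Nrf2 eye minus control eye, for each mouse (symbols) and gene; black bars are means with 95.3% intervals. All symbols of Gsta1, Gsta2 and Gsta3 lie above 1, Gsta4 crosses 0 in mouse 6, and mouse 4 is lowest for Gsta1 and Gsta2 but highest for Gsta4.

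The make-up of the class changed with these differences. The 4 members together reached 2466 to 7222 CPM in Nrf2 eyes (median 4795) and 606 to 3168 CPM in control eyes (median 1783). Gsta4 provided 58.0 to 90.0% of these counts in control eyes (median 78.9%) and 48.2 to 72.4% in Nrf2 eyes (median 50.9%). Its share was smaller in the Nrf2 eye of 6 of 7 mice, and mouse 4 was the exception, with 72.4% against 58.0%. Gsta1 and Gsta2 rose from medians of 2.76% and 2.50% to 10.04% and 14.5%. Gsta3 went from a median of 15.9% to 22.4%. Between the near-identical copies, Gsta1 held 39.6 to 52.5% of the joint Gsta1 and Gsta2 counts in control eyes and 38.1 to 43.4% in Nrf2 eyes. The gene models held 16.04 to 24.4% and 13.2 to 15.99% of the summed near-identical counts.

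**Figure D4:**
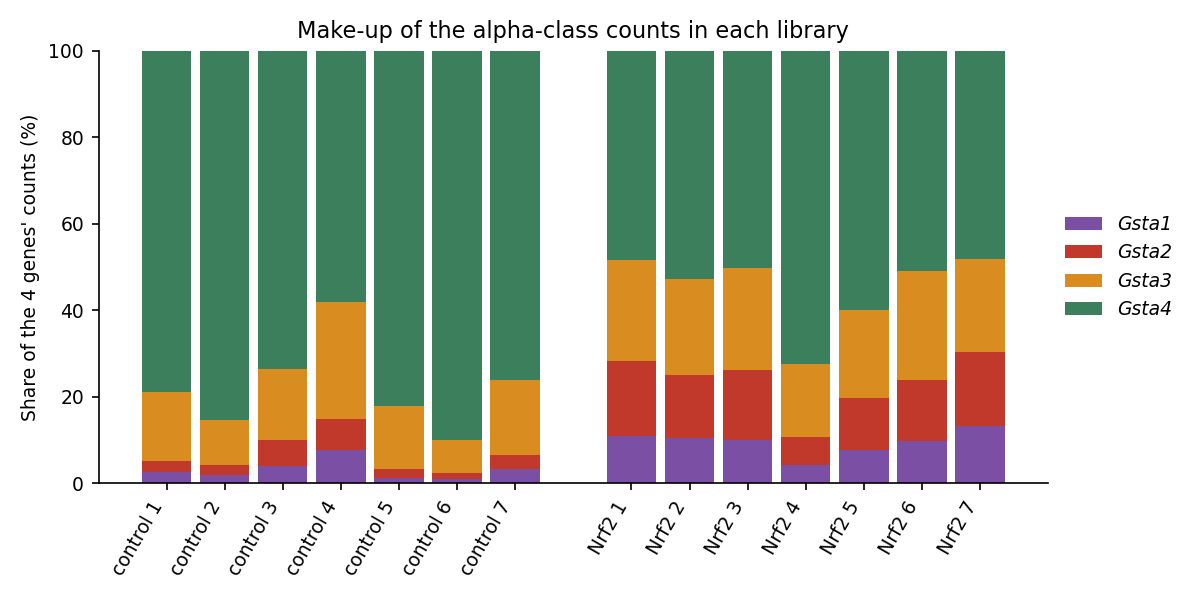
Share of the 4 genes' counts (%) held by each gene in the 7 control and 7 Nrf2 libraries. Gsta4 fills 58.0 to 90.0% of the control bars and 48.2 to 72.4% of the Nrf2 bars, the highest being Nrf2 4.

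To compare levels between genes, CPM were divided by transcript length. Per kilobase of the longest transcript, Gsta4 stood at 1549 ± 870 in control and 2712 ± 567 in Nrf2 eyes (SD, n = 7), highest in every library and without overlap with the next gene. Gsta2 followed in Nrf2 eyes at 858 ± 412, then Gsta1 at 584 ± 302 and Gsta3 at 399 ± 134. In control eyes the order after Gsta4 was Gsta3 at 91.8 ± 36.9, Gsta2 at 65.8 ± 47.5 and Gsta1 at 53.3 ± 28.3. Ranges of these neighbours overlapped. For Gsta1 over Gsta3 in Nrf2 eyes, and Gsta2 over Gsta1 in control eyes, the mean within-library log2 ratios were 0.41 and 0.22. Neither passed (exact sign-flip p = 0.0625 and 0.141), which does not show that the levels were equal. The order of Gsta1 and Gsta3 was reversed by mean length, with Gsta3 above by 0.34 (exact sign-flip p = 0.0625). By mean transcript length, Gsta2 was above Gsta1 in 7 of 7 control eyes, by 0.40 on the log2 scale (exact sign-flip p = 0.0156). The order of these 2 genes by mean level was thus the same, but whether their ratio passed the test depends on the length used. The longest Gsta3 transcript, of 2792 bases, is not protein-coding. With its longest coding transcript, of 1457 bases, Gsta3 stood at 765 ± 256 in Nrf2 eyes, above Gsta1 and not distinguishable from Gsta2 (exact sign-flip p = 0.75), and at 176 ± 70.6 in control eyes.

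Nrf2 eyes differed 7.49-fold in vector transcript, which allowed the members to be set against it within the group. Over the 7 Nrf2 eyes, log2 levels had r = 0.98 for Gsta1, 0.99 for Gsta2 and 0.995 for Gsta3 with human NFE2L2 (exact permutation adjusted p = 0.00159, 0.00159 and 0.00212 over 8 relations). Spearman rho was 0.96, 0.96 and 0.93 (exact permutation adjusted p = 0.0111, 0.0111 and 0.018). Without Nrf2 1 and Nrf2 4, the eyes farthest from the median vector level, r was 0.97, 0.97 and 0.98 over 5 eyes (exact permutation p = 0.00833, 0.00833 and 0.0167). At least as high an r was found in 0.27% of all genes tested for Gsta1, 0.135% for Gsta2 and 0.0184% for Gsta3. The summed RPE markers varied far less among these eyes, 25886 to 36317 CPM, and had r of -0.07, 0.01 and 0.06 with these genes. Single markers in that sum varied more, such as Rpe65 at 134 to 1063 CPM, highest in Nrf2 4, and Ttr at 3699 to 14241 CPM. The sum therefore does not describe each marker, and the part of RPE content in the relation was not tested. Surface epithelium markers varied from 2557 to 25566 CPM among the same eyes, with r of -0.82, -0.78 and -0.77, and their part in the relation with the vector transcript was not tested.

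For Gsta4, r with the vector transcript was 0.84 over Nrf2 eyes (exact permutation adjusted p = 0.0213) and rho = 0.75 (exact permutation adjusted p = 0.0884). The relation rested on the extreme eyes, since r was 0.62 without Nrf2 1 and Nrf2 4 (exact permutation p = 0.242). In control eyes, where the vector transcript was low, r was 0.72 for Gsta1, 0.80 for Gsta2, 0.60 for Gsta3 and 0.03 for Gsta4 (exact permutation adjusted p = 0.0722, 0.0183, 0.182 and 0.958). Without control 3 these became 0.43, 0.66, 0.33 and -0.16 (exact permutation p = 0.374, 0.113, 0.549 and 0.771).

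**Figure D5:**
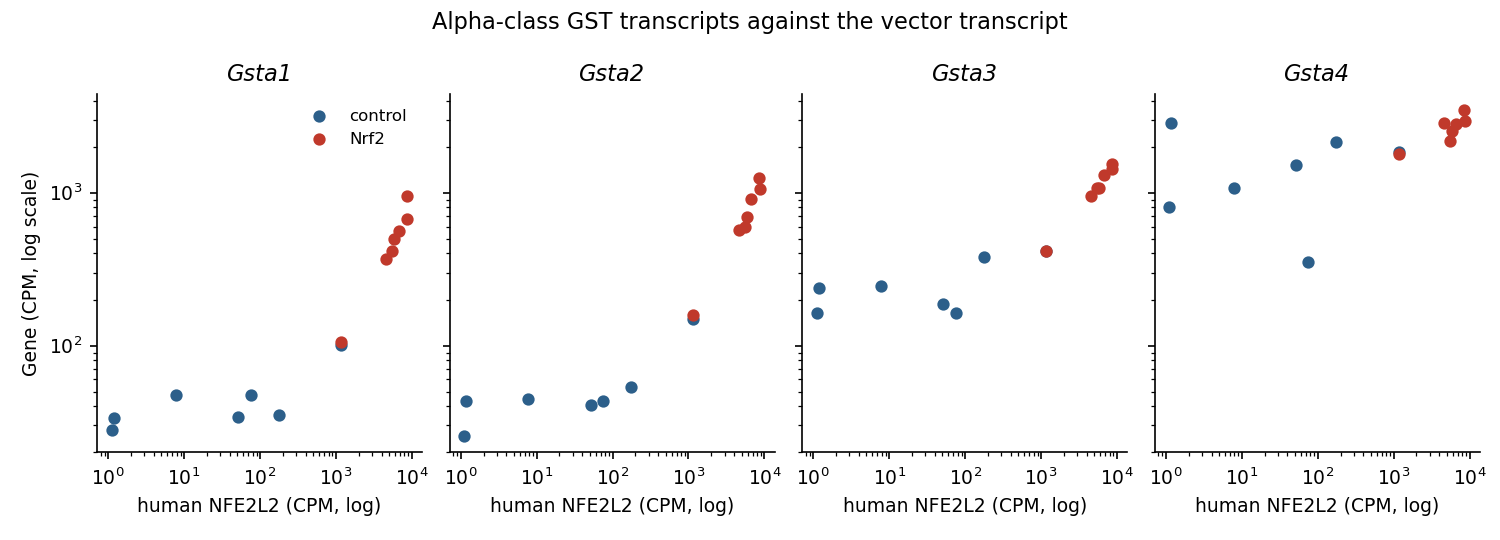
CPM of each gene against CPM of human NFE2L2, both on log axes; each point is 1 eye. Among Nrf2 eyes Gsta1, Gsta2 and Gsta3 increase with the vector transcript (r = 0.98, 0.99 and 0.995), and control 3 falls on Nrf2 4 at 1163 CPM of vector transcript.

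The genes whose 7 within-mouse differences lay closest to those of each member were then listed, among tested genes averaging at least 5 CPM. Nearest to Gsta1 were Gstp1, a pi-class GST, at a mean absolute distance of 0.195 (log2), the channel gene Panx1 at 0.269 and the pi-class pseudogene Gstp-ps at 0.360. For Gsta2 they were Gstp-ps (0.242), its own near-copy Gm10639 (0.331) and Panx1 (0.426). Word sharing between Gstp1 and Gstp-ps was not computed, so they may not be separate neighbours. Gsta3 was closest to Mocos (0.200), which sulfurates the molybdenum cofactor, the lipid peroxide reductase Prdx6 (0.262) and Cyb5a (0.276), a microsomal electron carrier. Gsta4 was closest to Phlda3 (0.226), Pir (0.266) and Polr3g (0.330). Like Gsta4, none of these last 3 genes was called, with log2 fold changes of 1.10, 0.99 and 0.88 (edgeR adjusted p = 0.143, 0.0931 and 0.155) and a lower level in the Nrf2 eye of 1 mouse.

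The steps around conjugation were read from fixed lists in the same fit. Over all 16289 genes tested, 2.94% were called higher and 0.491% lower, with a median log2 fold change of -0.04. Among other GST genes, 8 of 22 tested rose and none fell, with a median log2 fold change of 0.42. The mu-class Gstm1 had the largest, 5.36 (SE 0.79, edgeR adjusted p = 0.0135), from 209 ± 320 to 4906 ± 2390 CPM (SD, n = 7). Gstp1 rose by 3.40 (SE 0.41, edgeR adjusted p = 0.00936), close to the 3.51 of Gsta1. The scarce Gstm3 and Gstp2, under 7 CPM in every library, had 4.46 and 3.75 (SE 0.83 and 0.61, edgeR adjusted p = 0.0265 and 0.0174), and both belong to families of similar sequence, so their counts are uncertain. Gstm1 and Gstp1 belong to the same families, and word sharing was not computed for any of these genes.

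Glutathione supply had the largest proportion called, 7 of 11 higher and none lower, with a median of 2.04. The glutamate-cysteine ligase subunits Gclc and Gclm, the cystine transporter subunit Slc7a11 and glutathione synthetase Gss had log2 fold changes of 4.16, 2.99, 2.68 and 2.54 (edgeR adjusted p = 0.00936 each). Of genes for conjugate export and mercapturate formation, 4 of 18 rose and none fell, with a median of 0.37. These were the efflux pumps Abcc3 (2.88), Abcc4 (2.64) and Abcc1 (1.39) and the gamma-glutamyl transferase Ggt5 (2.71) (edgeR adjusted p = 0.0401, 0.00936, 0.0116 and 0.0135). Abcc4 was the most abundant of them, at 590 ± 258 CPM in Nrf2 and 97.98 ± 39.7 CPM in control eyes (SD, n = 7).

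Lipid aldehyde and lipid peroxide handling, the chemistry nearest to Gsta4, had 6 of 25 genes higher and none lower, with a median of 0.31. The alkenal reductase Ptgr1 and the carbonyl reductase Cbr3 had log2 fold changes of 3.61 and 3.39 (edgeR adjusted p = 0.011 and 0.00936). Prdx6 and the phospholipid hydroperoxide peroxidase Gpx4 had 2.33 and 1.67 (edgeR adjusted p = 0.00996 and 0.0288). The summed levels of this list and of the other GSTs were, like Gsta4, highest in control 6 and lowest in control 4 among control eyes, from 4411 to 10518 CPM and from 1603 to 10736 CPM. Much of these ranges lay in single abundant genes, Aldh3a1 at 97.3 to 6292 CPM and Gsto1 at 505 to 9955 CPM in control eyes. Neither was called (log2 fold change -0.51 and -1.48, edgeR adjusted p = 0.766 and 0.309), and the sums do not describe the lists as sets. Of 12 regulators tested, the Nrf2 competitor Bach1 (log2 fold change 0.78, SE 0.14, edgeR adjusted p = 0.0221) and the Nrf2 adaptor Keap1 (0.67, SE 0.14, edgeR adjusted p = 0.0348) rose. The calls of Gstm3, Gstp2, Abcc3, Ggt5, Gpx4, Bach1 and Keap1 were each lost when some single mice were left out. With 1 mouse left out, Ggt5 passed in 5 of 7 fits, Bach1 in 3, Gstp2 and Gpx4 in 2, and Abcc3 and Keap1 in 1. Gstm3 passed in 2 of the 6 fits that tested it. Adjusted p from edgeR reached 0.0588 for Ggt5 and 0.137 for Abcc3, the lowest and highest of the 7 maxima.

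The promoters of the responding members were read last. RefSeq (GRCm38.p6) gave a promoter for 3 of the 4 members, Gsta1, Gsta2 and Gsta3. The run from 250 bases before the start site to 30 after it is shown for each, since these are the members that rose together. They lie at chr9:78230419-78230698 (plus strand), chr9:78347116-78347395 (minus strand) and chr1:21240335-21240614 (plus strand). Capitals mark GCGTG, the core of the xenobiotic response element, in Gsta1 and Gsta2, and TGACNNNGC, the core of the antioxidant response element, in Gsta3.
Gsta1: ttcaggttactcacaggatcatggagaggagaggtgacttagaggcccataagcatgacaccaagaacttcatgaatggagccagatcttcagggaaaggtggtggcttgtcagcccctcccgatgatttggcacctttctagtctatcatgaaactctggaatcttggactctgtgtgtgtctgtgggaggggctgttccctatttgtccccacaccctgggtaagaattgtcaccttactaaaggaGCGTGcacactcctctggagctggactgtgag
Gsta2: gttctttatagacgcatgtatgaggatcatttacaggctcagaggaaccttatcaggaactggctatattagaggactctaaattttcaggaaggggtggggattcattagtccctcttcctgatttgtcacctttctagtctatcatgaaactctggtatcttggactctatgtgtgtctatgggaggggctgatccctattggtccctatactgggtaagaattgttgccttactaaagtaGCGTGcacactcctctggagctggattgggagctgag
Gsta3: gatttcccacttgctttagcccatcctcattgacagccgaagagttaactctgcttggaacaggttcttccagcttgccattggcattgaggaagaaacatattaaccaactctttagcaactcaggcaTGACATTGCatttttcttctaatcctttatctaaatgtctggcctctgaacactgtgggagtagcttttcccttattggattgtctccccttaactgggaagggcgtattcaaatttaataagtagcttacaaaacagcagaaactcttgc

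Gsta1 and Gsta2 were 80.3% identical over the promoter window (232 of 289 aligned bases), against 52.3% for Gsta1 and Gsta3 and 55.7% for Gsta2 and Gsta3. Both strands were searched over the full RefSeq windows, from 250 bases before the start site to 50 after it. Sequence farther away was not searched, so a motif absent here may still lie elsewhere near the gene. TGACNNNGC was present in Gsta3, as TGACATTGC from position -121, and in 12.4% of the 32851 mouse promoters. GCGTG was present in Gsta1 from position -2 and in Gsta2 from position -7, and in 32.4% of all promoters. The looser TGANNNNGC, which includes TGACNNNGC, was found in Gsta1 from position -126 and in Gsta3 from positions -121 and -18, and in 41.3% of promoters. TGACTCA, the AP-1 site found in 5.2% of promoters, was not in these windows.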

How the data were processed

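RNA of 14 RPE libraries, 1 from each eye of 7 mice, had been amplified with a low-input kit and sequenced in 2 runs that the labels do not assign to libraries, so nothing was compared within runs. The authors quantified transcripts with Salmon 0.9.1 (per the labels) and summed them per gene with Ensembl release 91 annotation on mm10. The table deposited by the authors holds rounded estimated counts, not normalized. That these are the Salmon values is inferred. All 14 columns were mapped by label. The study's methods count fewer pairs at this age than the labels give, and all 7 labelled pairs were used.

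The 34401 of 34452 mouse rows that matched GENCODE M21 (GRCm38, the mm10 build) supplied symbols, positions and lengths. CPM are counts scaled to a library total of 1000000. The main test was edgeR 4.0.16 (R 4.3.3), quasi-likelihood, with mouse and treatment as terms, TMM and filterByExpr with a minimum count of 10. Adjusted p-values are Benjamini-Hochberg over 16289 genes, with 0.05 as threshold. Sign-flip tests used log2 CPM with a prior count of 2. Pairs are eyes of the same mouse by label, and deviations of paired eyes from their group means correlated from -0.31 to 0.30. Mice are the replicates. Fits were tested on simulated data. Word sharing used exact 31-base words.

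The members, lists and tests were chosen with earlier results of these data known. Named genes were the 4 members, alpha-class models sharing words with them, NFE2L2, Rpe65 and other markers that move with a result, at most 4 genes with the largest changes per list, and for each member the 3 nearest genes. Alternatives were other normalizations and filters, DESeq2 1.42.0, voom (limma 3.58.1), no block, other gene lengths, an adjusted p under 0.01, summed copies and mice left out. The surface epithelium covariate and relations, the smaller sum, the coding length and the fits without control 3, Nrf2 4 or both their mice outside the main fit were added after the data were seen.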

Additional observations from a re-analysis of the deposited data

Results flagged for a closer look

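Within groups of 7 eyes, the gap between the highest or lowest eye and its neighbour was compared with the range of the group, for 30 groups, and 5 stood out. The cutoff flags about 1 in 20 groups of normally distributed values. CPM can be skewed, as for human NFE2L2 in control eyes (1.12 to 1163 CPM), so that rate need not hold here. In each of the 5 flagged groups the library was control 3, the highest of the control eyes. It held 100.5 CPM of Gsta1, 149 CPM of Gsta2, 2.42 CPM of Gm10639, 297 CPM of the summed near-identical copies and 1163 CPM of human NFE2L2. The 5 groups are not independent, since the copies share sequence and come from the same library. Gsta3 was also highest in control 3, at 414.9 CPM, but control 5 followed at 381 CPM. Gsta4 was not extreme there, at 1837 CPM.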

How the results depend on the processing

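Gsta1, Gsta2 and Gsta3 stayed called in the same direction under all normalizations, filters, tools, sums and left-out mice tried, with log2 fold changes of 3.27 to 3.83, 3.52 to 4.12 and 2.04 to 2.37 when 1 mouse was left out. Gsta4 was called by DESeq2 (1.19) and voom (1.15) only, and the edgeR estimate was 0.94 to 1.42 with 1 mouse left out. Its within-mouse mean was then 0.82 to 1.28, with the exact sign-flip p reaching 0.0625. Without the replicate block, the log2 fold changes were 3.59, 3.84, 2.25 and 0.91 for the 4 genes, and no member's call changed. With 6 mice the smallest exact sign-flip p is 0.0313, which limits calls over 6 pairs of members. The differences in response were 0.28 to 0.41 for Gsta2 over Gsta1, 1.09 to 1.47 for Gsta1 over Gsta3, 2.02 to 2.89 for Gsta1 over Gsta4, 1.48 to 1.76 for Gsta2 over Gsta3, 2.41 to 3.19 for Gsta2 over Gsta4 and 0.83 to 1.43 for Gsta3 over Gsta4, and all 6 passed only without mouse 4. Without mice 3 and 4 they were 0.33, 1.60, 3.10, 1.92, 3.42 and 1.50, with too few mice for the test to pass.

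Against the vector transcript, without the 2 farthest eyes, r was 0.83 for Gsta2 in control eyes (0.80 with all 7) and 0.62 for Gsta4 in Nrf2 eyes (0.84 with all 7), and neither passed any longer (exact permutation p = 0.0583 and 0.242). It fell to 0.66 for Gsta2 in control eyes without control 3 and to 0.61 for Gsta4 in Nrf2 eyes without Nrf2 4, and it changed sign to -0.16 for Gsta4 in control eyes without control 3, where it was not called. The level of Gsta3 per kilobase became 757 (mean length) or 765 (coding length) in Nrf2 eyes and 174 or 176 in control eyes, since its longest transcript is longer than those used here. At an adjusted p under 0.01 the lists kept 1 gene (other GSTs), 1 (conjugate export), 2 (lipid aldehydes and peroxides) and 0 (regulators), while glutathione supply kept 6 of 7. Calls of Gstm3, Gstp2, Abcc3, Ggt5, Gpx4, Bach1, Keap1 and Rpe65 were lost when some single mice were left out. Rpe65 passed in 2 of 7 such fits. The cause of the other changes was not tested.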
